A study of Caenorhabditis elegans with 4 samples.

Results

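The REC-8 peaks of the Caenorhabditis elegans X chromosome were described, taken as every row of the authors' combined peak list that lies on X. They numbered 618 of 5893 peaks in that list, of which 5889 are nuclear. The study profiled REC-8 by chromatin immunoprecipitation and sequencing (ChIP-seq), with 2 REC-8 ChIP libraries made with 5 µg of a rabbit polyclonal antibody and 2 input libraries. All 4 libraries came from one genotype, fem-2(b245)III hermaphrodites at 20 degrees Celsius, labelled as young adults with a germline, although the growth protocol speaks of gravid worms. The allele is carried by the inputs as well as the ChIP libraries, so no wild type was compared. Whole worms were ground, so germline and somatic binding cannot be told apart in these lists. A peak list for each ChIP replicate and the combined list were analysed, and the inputs were not analysed here. Nothing in the labels says that the replicates were separate cultures, so a difference between them may be technical.

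REC-8 is the kleisin subunit of a meiotic cohesin, the ring-shaped complex that holds sister chromatids together and on which the axis of meiotic chromosomes is built. Worm chromosomes are holocentric and have no single centromere, and their arms recombine more than their centres. The X chromosome differs from the autosomes in the germline, where most of it is kept transcriptionally silent through much of meiosis. Its left end carries the pairing centre, a region bound by the zinc finger protein HIM-8 through which the X homologues find each other.

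Positions are in WormBase WS220 coordinates, 1-based, and a peak's position is the midpoint of its start and end. The extent of X was taken as the last base of its last peak, 17718897, or 17.7 Mb, and the extents of the autosomes were taken in the same way. The lists hold no read counts, so the depth behind a peak is unknown. No source used here states the unit of the scores, and they were set side by side only within a list or between the replicate lists. With 1 condition, 2 replicates and 1 chromosome of this kind, no exact permutation test between X and the autosomes could reach a threshold of 0.05, and no test was made. Values of the autosomes stand beside those of X as description. Intervals on shares are exact Clopper-Pearson 95% intervals that cover counting error over peaks only, and peaks are not replicates.

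X had fewer called REC-8 peaks for its length than the autosomes, in both arms and in the centre. X made up 17.7% of the nuclear extent and held 11.2% of the nuclear peaks of replicate 1. Its share was 8.84% of replicate 2 peaks and 10.5% of combined ones. The left arm, centre and right arm of X, taken as 3 parts of equal length, each had fewer peaks per Mb than the corresponding part of any autosome in all 3 lists. In the centre, from 5906300 to 11812598, replicate 1 had 8.47 peaks per Mb on X and 17.1 to 24.1 on the autosomes. Replicate 2 had 6.94 there on X, against 16.5 to 32.4 on the autosomes. In the left arm the distance was smaller, with 14.6 peaks per Mb on X and 18.5 to 23.7 on the autosomes in replicate 1.

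Within X, both replicates had their peaks mainly in the arms. The left arm held 86 of 220 peaks in replicate 1 and 73 of 179 in replicate 2, or 13.5 ± 1.56 peaks per Mb (SD, n = 2 replicates). The right arm held 84 and 65 peaks, or 12.6 ± 2.27 per Mb (SD, n = 2). The centre held 50 and 41 peaks, or 7.70 ± 1.08 per Mb (SD, n = 2). Neither arm came within the spread of the centre: the sparser arm of each replicate had 14.2 and 11.0 peaks per Mb, above 8.47 and 6.94 in the centre. The left arm was slightly ahead of the right in both replicates, with a log2 ratio of peaks per Mb of 0.03 in replicate 1 and 0.17 in replicate 2, and their mean densities lay within 1 SD of each other. In base pairs covered, the left arm took 41.0 ± 0.79% of the peak length on X, the right arm 36.4 ± 0.32% and the centre 22.6 ± 0.47% (SD, n = 2). In this measure the arms differed by more than the spread between replicates.

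The combined list was more even along X. It placed 225 peaks in the left arm, 184 in the centre and 209 in the right arm, shares of 36.4% (interval 32.6 to 40.3%), 29.8% (26.2 to 33.6%) and 33.8% (30.1 to 37.7%). The centre share on the autosomes ran from 34.3% on chromosome V to 38.2% on chromosome III, so X had the lowest centre share of the 6 chromosomes in this list too. In the replicates the centre of X held 22.7% and 22.9% of its peaks, and the autosomes were at 26.5 to 36.8% in replicate 1 and 29.6 to 37.8% in replicate 2.

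**Figure D1:**
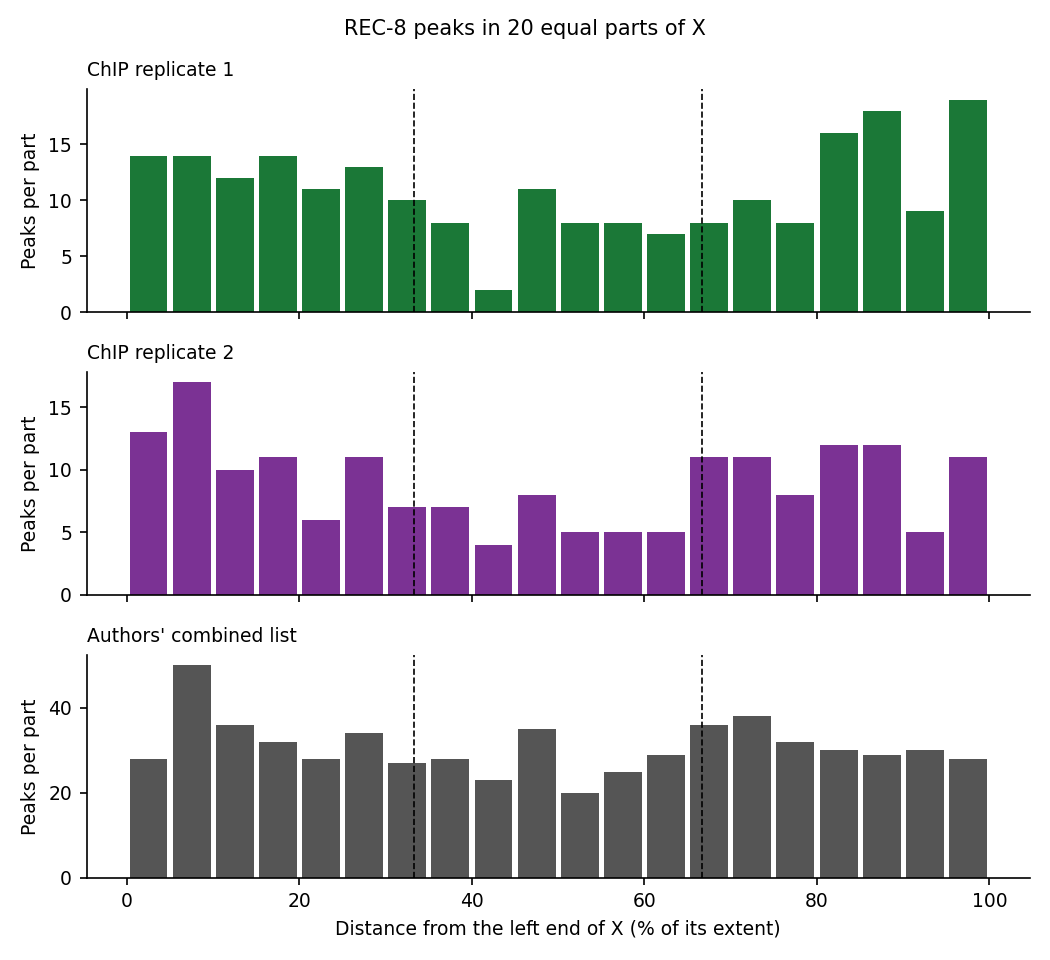
Number of REC-8 peaks (vertical axis) in 20 equal parts of X, by distance from its left end in % of its extent, for ChIP replicate 1, ChIP replicate 2 and the authors' combined list. Dashed lines part the arms from the centre, and the lowest bar of both replicates is the part from 40 to 45% of the extent, with 2 and 4 peaks.

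In finer parts, both replicates were crowded and empty in similar places. X was cut into 20 parts of 0.886 Mb, and the replicates' counts over these 20 parts had a Spearman rho of 0.80, a description over neighbouring parts of a single chromosome. The barest part of both ran from 7087560 to 7973504, with 2 peaks in replicate 1 and 4 in replicate 2, and the combined list had 23 there. Replicate 2 was most crowded from 885946 to 1771890, in the left arm, with 17 peaks, where replicate 1 had 14 and the combined list 50, its largest count. Replicate 1 was most crowded in the last part of the right arm, from 16832953, with 19 peaks against 11 of replicate 2 and 28 combined ones. The counts of the combined list followed replicate 2 (rho 0.56) more than replicate 1 (rho 0.29). The first part of X, at the end that carries the pairing centre, had 14 peaks in replicate 1, 13 in replicate 2 and 28 combined peaks. By length covered it was the highest part in both replicates, at 1.93% and 3.35%, though the last part was close, at 1.90% and 3.11%.

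Overlap with the replicate lists, counted from 1 shared base pair, split the 618 peaks into 4 groups. A replicate 1 peak was overlapped by 203 of them, or 32.8% (interval 29.2 to 36.7%), where 28.9% of all nuclear combined peaks overlapped one. A replicate 2 peak was overlapped by 252, or 40.8% (36.9 to 44.8%), where the figure for all nuclear peaks was 50.9%. In both replicates were 148 peaks, or 23.9% (20.6 to 27.5%), near the 23.1% of all nuclear peaks. In neither were 311 peaks, or 50.3% (46.3 to 54.3%), against 43.3% of all nuclear peaks. The share found in both thus lay close to the whole list, and the remaining peaks of X divided differently. Replicate 1 alone accounted for 55 peaks of X, or 8.90%, and replicate 2 alone for 104, or 16.8%. On the 5 autosomes joined these shares were 5.39% and 29.1%. Chromosome V was the autosome nearest to X in both, with 7.09% and 23.7%. Of its combined peaks 32.5% overlapped a replicate 1 peak, close to X, and 49.1% a replicate 2 peak.

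**Figure D2:**
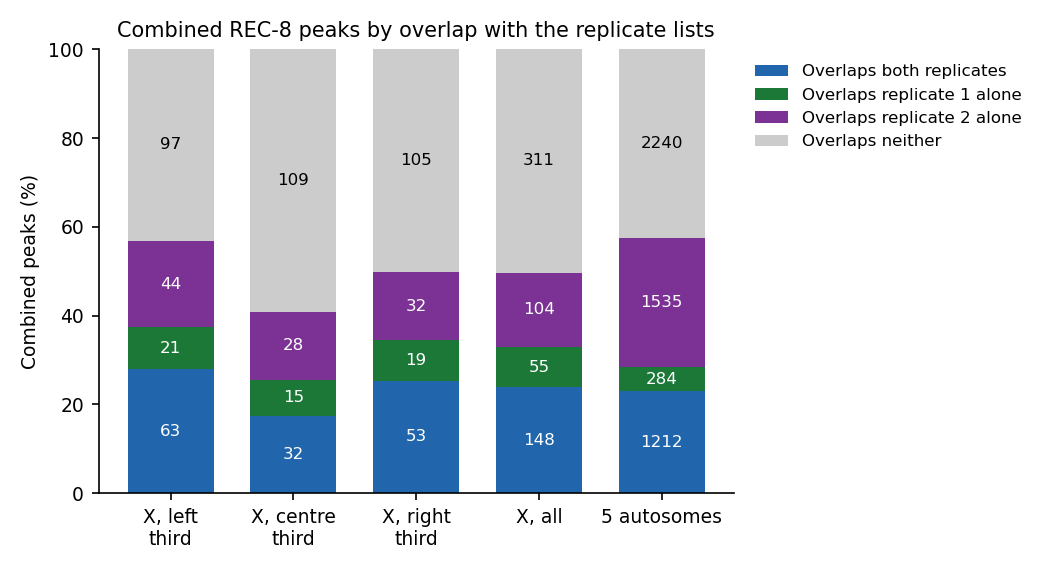
Combined REC-8 peaks (% of each bar, number of peaks written inside) by overlap of at least 1 bp with the replicate lists, for the left, centre and right parts of X, all of X, and the 5 autosomes joined. The centre of X has the largest share in neither replicate, 59.2%, and on X the segment for replicate 2 alone is 16.8%, against 29.1% on the autosomes.

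Sharing was lowest in the centre of X. There 32 of 184 combined peaks were in both replicates, or 17.4% (interval 12.2 to 23.7%), and 109 were in neither, or 59.2%. In the left arm 63 of 225 were in both, or 28.0% (22.2 to 34.4%), and in the right arm 53 of 209, or 25.4% (19.6 to 31.8%), so these intervals overlap with that of the centre. The centre was also lowest when the replicates were set against each other. There 31 of 50 replicate 1 peaks overlapped a replicate 2 peak, or 62.0%, with 77.9% in the left arm and 78.6% in the right. Of the replicate 2 peaks, 27 of 41 in the centre overlapped a replicate 1 peak, or 65.9%, with 74.0% in the left arm and 72.3% in the right. No interval was computed for these replicate shares. Combined peaks had a median width of 267.5 bp in the centre and 301 bp in each arm, and wide peaks meet an overlap more readily. Sharing by part was not computed for the autosomes.

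Each replicate list was nearly complete within the combined list on X, as on the autosomes. On X all 179 replicate 2 peaks and 213 of 220 replicate 1 peaks, or 96.8%, overlapped a combined peak. On the autosomes joined 1842 of 1847 replicate 2 peaks did, or 99.7%, and 1691 of 1741 replicate 1 peaks, or 97.1%. The 7 X peaks that did not had replicate 1 scores of at most 73.4, that of a 258 bp peak at 8025726 to 8025983. The replicates shared fewer places with each other. Of the replicate 1 peaks on X, 164 overlapped a replicate 2 peak, or 74.5%, where single autosomes had 78.0 to 84.2%. Of the replicate 2 peaks on X, 128 overlapped a replicate 1 peak, or 71.5%, where single autosomes had 50.1 to 67.8%. X was thus lowest of the 6 chromosomes in the first direction and highest in the second. X was the chromosome on which replicate 1 had the most peaks for each replicate 2 peak, at 1.23, with autosomes between 0.763 on chromosome I and 1.13 on chromosome V. For a given number of shared places, a larger ratio lowers the first share and raises the second, so these are not separate results.

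Peaks of X that were in both replicates had high scores and large widths, as on the autosomes. A wide peak meets an overlap of 1 bp more readily, so the width difference is partly built into the grouping. Their combined scores had a median of 61.6 and their widths one of 657.5 bp, and they made up 49.9% of the length covered. For peaks in neither replicate the medians were 5.55 for the score and 213 bp for the width, and they made up 24.9% of the length covered. On the autosomes the medians were 48.0 and 703.5 bp for peaks in both, and 5.545 and 217 bp for peaks in neither. Of the 145 peaks of X in the highest-scored of 4 equal groups of nuclear combined peaks, 119 were in both replicates, or 82.1% (interval 74.8 to 87.9%), and 955 of 1328 autosomal peaks of that group were, or 71.9% (69.4 to 74.3%). In this group 11 peaks of X, or 7.59%, were in replicate 2 alone, against 20.0% on the autosomes. In the lowest-scored group 3 of 148 peaks of X were in both replicates, or 2.03%, and 1.44% on the autosomes were.

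X held a larger share of the high-scored than of the low-scored peaks in both replicate lists. When each list was divided by score into 4 groups of equal size, X held 9.59% of the lowest-scored and 14.1% of the highest-scored replicate 1 peaks. In replicate 2 it held 8.10% and 11.2%. The groups between held 9.80% and 11.4% in replicate 1, and 5.52% and 10.5% in replicate 2, where the rise was thus not steady. Among the 100 highest-scored peaks of each list, 18 of replicate 1 and 17 of replicate 2 lay on X, close to the 17.7% of the extent that X makes up. The combined list did not show this, with 10.1% in the lowest-scored group, 9.84% in the highest-scored and 12 of the 100 highest-scored peaks on X. In the same way the median score of X peaks was the highest of the 6 chromosomes in replicate 1, at 217 with autosomes at 153 to 192. It was also the highest in replicate 2, at 384 with autosomes at 173 to 276, and the lowest in the combined list, at 7.67 with autosomes at 7.73 to 9.01.

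**Figure D3:**
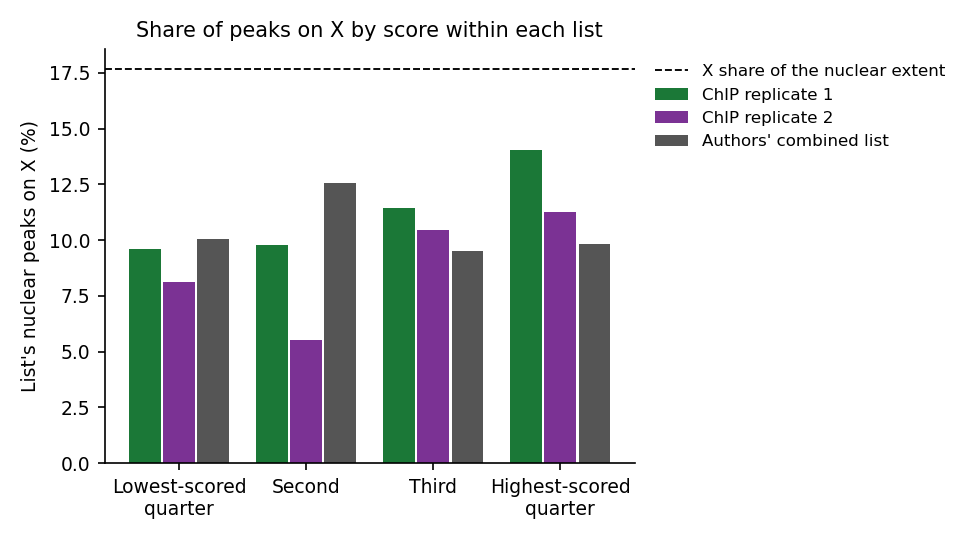
Share of each list's nuclear peaks that lie on X (%), in 4 groups of equal size from the lowest-scored to the highest-scored peaks of that list. The dashed line marks the 17.7% of the nuclear extent that X makes up, and the replicate bars end at 14.1% and 11.2% in the highest-scored group, above the 9.59% and 8.10% of the lowest-scored group.

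The scores of shared places on X fell on both sides of equality. At 103 places on X a single replicate 1 peak and a single replicate 2 peak overlapped only each other. Of these, 47 scored higher in replicate 1, or 45.6% (interval 35.8 to 55.7%), 53 scored higher in replicate 2, and 3 were equal. At the 845 such places on the autosomes, 203 scored higher in replicate 1, or 24.0% (21.2 to 27.1%). Single autosomes ran from 18.7% on chromosome I to 33.0% on chromosome V. The share on X was smaller, 30.5%, when each of the 164 overlapping replicate 1 peaks was set against its best replicate 2 peak. The 45.6% thus rests in part on keeping only places paired one to one. That 30.5% lies within the range of single autosomes given above. No autosomal share was computed under the same rule, so whether X differs from the autosomes under it is unknown. This comparison of the replicate scores was chosen after the values were seen.

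The scores on X also lay far apart in both directions. Among the 95 pairs on X in which both scores were below 3100, a value at which many top scores are tied, 28 were at least 2 times higher in replicate 1, or 29.5%, and 38 at least 2 times higher in replicate 2, or 40.0%. Only 29 of these 95, or 30.5%, lay within a factor of 2. Of the 814 such autosomal pairs 6.02% were at least 2 times higher in replicate 1, 46.8% at least 2 times higher in replicate 2, and 47.2% within a factor of 2. Chromosome V alone had 11.8%, 47.6% and 40.6% in the same order, nearest to X in the first and last of these. On a log2 scale of replicate 2 over replicate 1, X had 24 pairs between -2 and -1, 17 between -1 and 0, 12 between 0 and 1, and 21 between 1 and 2. The autosomes had 38, 148, 236 and 273 in these bins, so that their counts had a single high where those of X had a low between its high bins. The median was 0.16 on X and 0.92 on the autosomes. The Spearman rho of the scores over these pairs was 0.43 on X, 0.68 on the autosomes and 0.59 on chromosome V alone. It is given as a description across peaks that share 2 libraries.

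**Figure D4:**
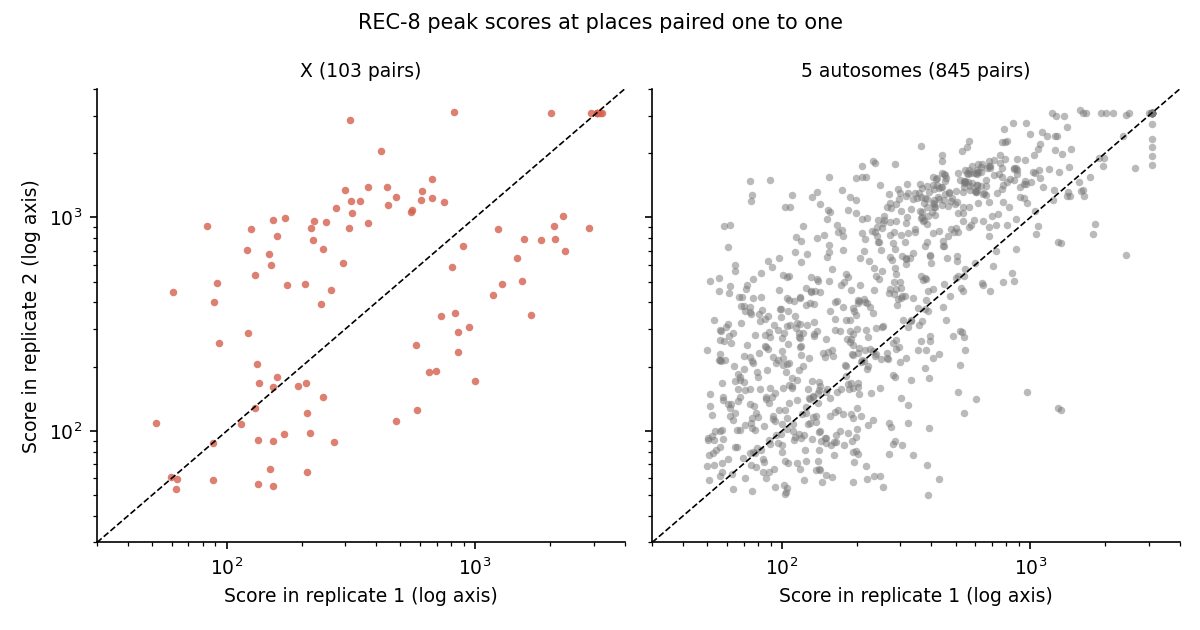
Peak score in ChIP replicate 1 (horizontal, log axis) and replicate 2 (vertical, log axis) at places paired one to one, on X (left) and on the 5 autosomes (right). Each point is a place and the dashed line is equality; on X 47 of 103 points lie below the line and on the autosomes 203 of 845.

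Places on X that scored higher in replicate 1 had wider replicate 1 peaks and closer midpoints than those that scored higher in replicate 2. The sets were formed by score, so their score medians differ by construction. At all 103 places the replicate 1 peak lay inside a wider replicate 2 peak. A wider replicate 1 peak thus leaves less room between the midpoints. How far the widths follow from the scores was not tested. The 47 places that scored higher in replicate 1 had median scores of 697 in replicate 1 and 191 in replicate 2, and a median replicate 1 width of 670 bp. The 53 places that scored higher in replicate 2 had median scores of 243 and 909 and a median replicate 1 width of 403 bp. The median replicate 2 widths of the sets were 1234 and 1381 bp. The midpoints of the replicates were a median of 22 bp apart in the first set and 83 bp in the second. The first set had 19 places in the left arm, 10 in the centre and 18 in the right arm, and the second set 23, 14 and 16, so both were spread along the chromosome. In the combined list the first set had a median score of 48.9 and the second 91.3. Among autosomal places that scored higher in replicate 1, the median replicate 1 score was 229 and the median replicate 1 width 467 bp. Among those that scored higher in replicate 2, the median replicate 1 width was 445 bp. Midpoints were a median of 45.5 and 61.5 bp apart in these autosomal sets, in the same order. The part of depth and of the inputs in these score differences was not tested.

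The largest score differences on X can be read from single places. The peak at 1344780 to 1345254 of the combined list scored 996 in replicate 1 and 171 in replicate 2, a factor of 5.83. The peak at 16056147 to 16056873 scored 1677 and 349. They were 475 and 727 bp wide, with combined scores of 74.2 and 89.6. In the other direction, the peak at 2559203 to 2559803 scored 83.4 in replicate 1 and 909 in replicate 2, a factor of 10.9, with a combined score of 106. The 3404 bp peak at 9185349 to 9188752 scored 312 and 2877, with a combined score of 26.7. These places were chosen after the values were seen.

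The 10 highest-scored peaks of X in both replicates had combined scores of 145 to 162, within the top 79 of the 5889 nuclear peaks, and 3 were longer than 1.5 kb. Of the 10, 5 lay in the left arm, 2 in the centre and 3 in the right arm. The peak at 11206657 to 11207344 had the highest combined score of the whole list, 162.3, with 673 in replicate 1 and 1509 in replicate 2. It was 688 bp wide and its nearest neighbouring peak was 43655 bp away. The peak at 3099657 to 3100219 was close behind with 161.6, 603 in replicate 1 and 1205 in replicate 2. Neither was a top peak of replicate 1, whose highest score on X, 3228, belonged to the 2007 bp combined peak at 9007133 to 9009139.

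Other leading peaks scored at or near the tied top score in both replicates. The peak at 1503438 to 1505121, 1684 bp wide, scored 3100 in both replicates and 158 in the combined list. The peak at 16100173 to 16101792, 1620 bp wide, scored 2920 in replicate 1 and 3100 in replicate 2, with a combined score of 157. The remaining ones were a 1425 bp peak at 14723375 and narrower peaks at 15173416, 2809423, 3803036 and 5165009, of 581 to 689 bp. Those 4 narrower peaks had replicate 1 scores of 344 to 612 and replicate 2 scores of 1146 to 1390, so each was higher in replicate 2. The third-ranked peak of the centre, at 6091842 to 6092329, scored 317 and 1191 and had a combined score of 141.

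Some peaks of high combined score had no replicate peak under them. The 5 highest were at 11791277 to 11792108 with a combined score of 44.3, and at 555071, 2242801, 978299 and 11792630 with scores of 25.8 to 23.5. The first and last of these are neighbours, 521 bp apart. Of the 311 peaks in neither replicate, 58 lay within 5 kb of a combined peak that was in a replicate, or 18.6%, and 198 lay over 20 kb from one. Neighbours that were themselves in neither replicate are not counted in these distances. The same distances were not computed for the autosomes, and fewer peaks per Mb give longer distances by construction.

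Peak widths on X were close to those on the autosomes. The median width on X was 428.5 bp in replicate 1 (quartiles 328 and 737 bp), 1383 bp in replicate 2 (1173 and 1892 bp) and 290 bp in the combined list (198 and 528.5 bp). On the autosomes joined it was 430, 1477 and 294 bp in the same order. On the log2 scale X over the autosomes averaged -0.05 ± 0.06 (SD, n = 2), a difference smaller than the spread between replicates. Against chromosome V alone it averaged -0.10 ± 0.04 (SD, n = 2), which is beyond that spread. Widths of 1 kb or more were held by 48 combined peaks of X, or 7.77%, and by 7.66% of autosomal ones. These 48 covered 33.9% of the peak length on X, and 39 of them were in both replicates, or 81.25%. Autosomal peaks of this width covered 31.7% of the autosomal peak length, and 83.4% of them were in both replicates. Of the 158 peaks of X under 200 bp, 1 was in both replicates and 137 were in neither, or 86.7%, where 73.7% of autosomal peaks under 200 bp were in neither.

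The 5 widest combined peaks of X all lay in the arms. A 10.7 kb peak at 16929355 to 16940038 met 4 peaks in replicate 1 and a single 12251 bp peak with a score of 3100 in replicate 2, and had a combined score of 144. A 5.47 kb peak at 289829 to 295302 was a single peak in each replicate, scored 823 in replicate 1 and 3130 in replicate 2. A 4.82 kb peak at 109466 to 114284 scored 3178 in replicate 1 and 3100 in replicate 2. Both of these left-end peaks lay within the first 0.3 Mb of X and had combined scores of only 35.7 and 34.4, ranks 101 and 105 among the peaks of X. A 4.89 kb peak at 14384817 to 14389705 reached 258 in replicate 1, over 2 peaks, and 786 in replicate 2, and a 3.68 kb peak at 15807492 to 15811172 scored 2020 and 3100. All 5 were in both replicates. Apart from the widest, their combined scores ran from 17.3 to 35.7.

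X began with a peak at base 1 in all 3 lists, which was not particular to X. Replicate 1 also had a peak from base 1 on chromosomes II, III and IV, and from base 4 on chromosome V. Each of these overlapped a replicate 2 peak. The X peak ended at base 335 in replicate 1, 762 in replicate 2 and 331 among combined peaks. Its combined score was 15.5. At the right end, the last replicate peaks started at 17610414 in replicate 1 and 17609957 in replicate 2. The combined list had a further peak at 17718591 to 17718897, 107835 bp beyond the preceding one, with a combined score of 20.4 and in neither replicate.

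Neighbouring peaks were farther apart on X than on any autosome in all 3 lists. The median distance between neighbouring midpoints on X was 39.2 kb in replicate 1 and 71.0 kb in replicate 2, and the combined list gave 14.5 kb. On single autosomes it was 17.1 to 25.5 kb, 22.4 to 38.5 kb and 5.36 to 7.69 kb in the same order. The mean log2 ratio of X to the autosomes joined was 1.16 ± 0.33 (SD, n = 2), a ratio of 2.24, and against chromosome V, the sparsest autosome, it was 0.75 ± 0.19. Close pairs were also fewer. Fewer peaks per Mb give wider spacing and fewer close pairs by construction, and these measures were not adjusted for density. Neighbours within 5 kb made up 27.9% of pairs on X in replicate 1, 6.74% in replicate 2 and 35.0% of those combined, where autosomes had 29.0 to 37.7%, 9.62 to 14.0% and 41.6 to 48.0%.

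**Figure D5:**
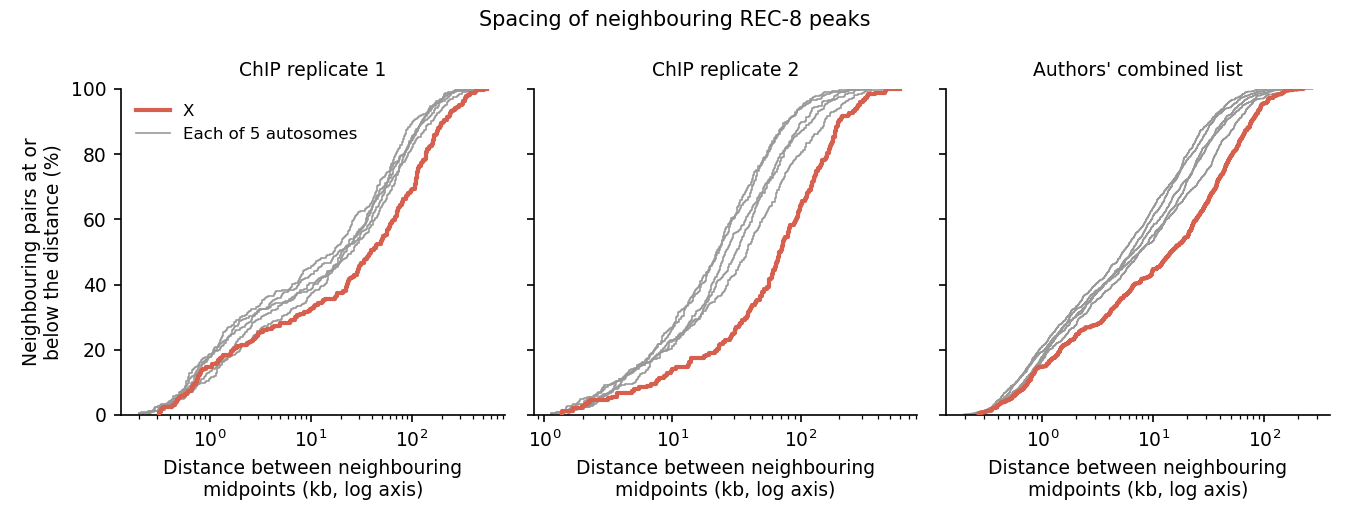
Share of neighbouring pairs (%) whose midpoints lie at or below a distance (kb, log axis), for X (thick line) and each of the 5 autosomes (thin lines) in ChIP replicate 1, ChIP replicate 2 and the authors' combined list. The X line crosses 50% at 39.2, 71.0 and 14.5 kb, to the right of the autosomes in each panel.

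Peaks of X were more often solitary than those of any autosome, which fewer peaks per Mb also give by construction. Peaks were joined into runs where the gap between them was at most 5 kb. Single peaks then made up 54.1% of X peaks in replicate 1, 82.7% in replicate 2 and 44.5% of combined ones, with autosomes at 41.6 to 49.8%, 66.6 to 71.8% and 28.1 to 34.0%. The 618 combined peaks formed 396 runs, of which 275 were single peaks, 69 were pairs and 52 held 3 or more. The longest had 8 peaks over 11.7 kb, from 5045610 to 5057260 in the left arm, with 3 peaks in replicate 1 and 2 in replicate 2. Runs of 7 lay at 1880775 to 1888737, at 4018771 to 4030327 and at 7951512 to 7956478. The second of these had 0 replicate 2 peaks and 3 of replicate 1, and the third had 0 of replicate 1 and 2 of replicate 2. The median combined scores of these runs of 7 were 4.56, 7.68 and 6.85, in the order given, and that of the longest run was 5.61. The median over all combined peaks of X was 7.67.

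Dense stretches of X were mild, on a chromosome with fewer peaks per Mb than any autosome. Of 178 windows of 100 kb, the fullest in the combined list was 1800001 to 1900000, with 10 peaks, 1 in replicate 1 and 2 in replicate 2, and the mean was 3.47. Windows of 9 peaks began at 1300001, 5000001, 5200001, 6200001 and 8000001. The densest windows of single autosomes held 19 to 54 combined peaks. The window borders mattered, since windows moved by 50 kb put 16 peaks in 7950001 to 8050000, of which 2 were in both replicates and 6 in neither, and 13 in 1850001 to 1950000.

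Long stretches without a peak were common on X, and they too follow in part from fewer peaks per Mb. Gaps over 100 kb took up 77.5% of X in replicate 1, 70.2% in replicate 2 and 21.2% for combined peaks, against at most 61.3%, 56.8% and 19.1% on an autosome, chromosome V in each case. The longest of replicate 1 was 554 kb, from 6522950 to 7077433, and overlapped 3 peaks of replicate 2 and 15 of the combined list. The next, 520 kb from 7501390 to 8021124, overlapped 3 and 17. In replicate 2 the longest was the 594 kb stretch from 9744294, with 2 peaks of replicate 1 and 9 of the combined list. All 3 of these stretches lay in the centre.

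Of the 5 longest gaps of each replicate, 2 overlapped between the replicates. The replicate 2 gap from 6601785 to 7067957 (466 kb) lay inside the longest gap of replicate 1, and the combined list had 11 peaks in it. The replicate 2 gap from 7501695 to 7952578 (451 kb) lay inside the second-longest of replicate 1, and the combined list had 6 peaks in it. The 642 bp combined peak at 7500647 to 7501288 stands at the left edge of the second of these shared gaps, with a combined score of 137, 481 in replicate 1 and 1251 in replicate 2. It was singled out after its values were seen.

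The longest stretch with no peak in any of the 3 lists ran from 10140227 to 10338497, 198 kb in the centre. The next were 179 kb from 7501695 to 7680861, 165.5 kb from 5542436 to 5707913, 164.8 kb from 6903200 to 7067957 and 155 kb from 12890583 to 13045826. Of these 5, 3 lay in the centre, 1 in the left arm and 1 in the right arm. Of the 178 windows of 100 kb, 10 had no combined peak, 9 had none in any list and 52 had none in either replicate. Both replicates had a peak in 97. Windows without a combined peak made up 5.62% on X and 6.19% on chromosome V, with the other autosomes lower. In the replicate lists X had the largest share of empty windows, 38.8% and 36.0%, against at most 31.0% and 25.2% on an autosome. The combined list itself had its longest gap from 5486305 to 5707913, 222 kb. A replicate 1 peak of 208 bp at 5542228, with a score of 66.6, lay inside it, and a replicate 2 peak reached over its left edge. Chromosome V exceeded those 222 kb, with 272 kb bare of combined peaks. Within each replicate list, no autosome had a gap as long as that of X.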

How the data were processed

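The submitters' processing notes name BWA and the build ce10. Coordinates are WormBase WS220 per the file headers. In the deposited files the source column reads MACS for the replicate lists and MACS v2 for the combined list. The score in the deposited lists is the caller's, and the sources used here do not give its scale, the threshold, the use of the inputs or how the replicates were combined. Ground worms were crosslinked with EGS and then formaldehyde before sonication, per the labels' protocols. A called peak depends on depth and assumed fragment length, so numbers and widths may reflect these.

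From the deposited starts and ends, midpoints, widths, gaps and overlaps of at least 1 bp were computed with Python 3.11.15, numpy 2.4.6, pandas 2.3.3 and scipy 1.17.1, drawn with matplotlib 3.10.9 and checked on simulated peaks with known answers. Values from the combined list carry no n. X was cut into 3 equal parts, 20 equal parts and windows of 100 kb. Named peaks were the 10 highest-scored in both replicates, the 5 widest, the 5 highest-scored in neither, the 3 highest-scored of each arm and the centre, the end peaks, the 5 longest gaps of each list, the 3 fullest windows and the 3 longest runs. The members, tests and this rule were chosen with earlier results of these data known. The pairing of replicate scores, and the peaks named there, were chosen after seeing the data. Mitochondrial peaks were left out. Peaks were given no gene or sequence, since WBcel235, the build of the only gene table used, differs.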

Additional observations from a re-analysis of the deposited data

How the results depend on the processing

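Of 90 alternative values for 19 results, 41 stayed within the interval, spread or factor of 1.5 of the main value and 49 did not; the cause was not tested, except that fewer peaks or another list give wider spacing by construction. Requiring 50% of the shorter peak changed no overlap share beyond its interval. Midpoints within 500 bp gave 31.4% of combined X peaks in replicate 2, 19.9% in both and 57.8% in neither. The higher-scored 50% of each list gave 40.4% in replicate 1 and 30.9% in both; it put 26.0% of X peaks in the centre and 37.9% in the right arm, with a median width of 488 bp, a median spacing of 45.0 kb, 19.0% of neighbours within 5 kb, a longest gap of 380 kb, 37 empty windows and 6 peaks in the fullest. Merging peaks within 500 bp gave 35.7% in replicate 2, 56.7% in neither, a spacing of 23.2 kb and 20.5% within 5 kb. With one replicate left out, 32.8% to 40.8% of combined peaks counted as shared. An inner part of 50% of the extent held 47.7% of peaks, with 28.2% to its left and 24.1% to its right. The mean of the replicate lists gave 22.8% in the centre, a width of 905.75 bp, a spacing of 55.1 kb, 17.3% within 5 kb, a longest gap of 574 kb, 66.5 empty windows and 5.5 peaks in the fullest. With one replicate list left out, the other gave 39.1% to 40.8% in the left arm, 22.7% to 22.9% in the centre, 36.3% to 38.2% in the right arm, widths of 428.5 to 1383 bp, spacings of 39.2 to 71.0 kb, 6.74% to 27.9% within 5 kb, longest gaps of 554 to 594 kb, 64 to 69 empty windows and 5 to 6 peaks in the fullest. Windows moved by 50 kb gave 16 peaks in the fullest. Against chromosome V alone the log2 ratio of X was -0.60 for density, where all autosomes gave -0.96, and 0.75 for spacing, where they gave 1.16; density ran from -1.15 to -0.76 and spacing from 0.93 to 1.40 with one replicate left out, and the width ratio from -0.09 to -0.01. The share in both replicates was 0.95 percentage points higher on X than on all autosomes, and -1.45 points against chromosome V, within the counting interval. When every overlapping replicate 1 peak was set against its best replicate 2 peak, 30.5% of 164 scored higher in replicate 1, against 45.6% at places paired one to one. No autosomal share was computed under this rule. No paired analysis was possible because the inputs, which carry the same replicate numbers as the ChIP libraries, were not analysed here. The 3 settings for paired replicate scores were chosen after seeing the data, and the other 2 gave 38.3% and 47.4%. Since depth cannot be read from these lists, absence of a peak is not absence of REC-8.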
